A study of Mus musculus with 15 samples.

Results

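The immediate early genes described here are Fos, Fosb, Jun, Junb, Jund, Egr1, Atf3, Ier2, Dusp1 and Zfp36, 10 genes found by their exact symbols in 2 deposited tables of read counts. The differentiation table has 34245 rows, of which 11 carried these symbols, Junb having 2 rows, and 9 held enough reads to be tested, since Fosb and the second Junb row did not. The IL4 table has 25965 rows, of which 10 carried them and 7 were tested, without Fosb, Jund and Ier2. RNA sequenced by Ion Torrent came from bone marrow cells of C57BL/6 males, 8 to 10 weeks old, all cultured with CSF-1 (colony-stimulating factor 1), which macrophages need to survive and grow. Precursors were non-adherent cells after 2 days at 0.6 ng/ml CSF-1 and 15% fetal calf serum. Immature macrophages had a further 4 days at 12 ng/ml and 10% serum. Mature macrophages had 1 day at 0.6 ng/ml, 2 days at 12 ng/ml and 7 days at 120 ng/ml, the later 9 of these days in 10% serum. In the IL4 table, mature macrophages received IL4, the cytokine interleukin 4, at 20 ng/ml for a further 48 h, and unstimulated mature macrophages were kept for the same 48 h without it, both at 120 ng/ml CSF-1. There were 5 groups with 3 libraries apiece, and each library bears the number of a mouse. CSF-1 dose and days in culture changed together along the stages and cannot be told apart, and serum changed with them between precursors and both macrophage stages.

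Immediate early genes are transcribed within minutes of a stimulus from factors already present in the cell, without new protein synthesis, and their mRNAs are short-lived. Growth factor receptors such as that of CSF-1 reach them through the ERK, JNK and p38 kinases, which act on serum response factor with its partners and on CREB and ATF factors at their promoters. FOS, FOSB, JUN, JUNB and JUND pair into the AP-1 transcription factor, and ATF3 belongs to the same class of leucine zipper proteins. EGR1 is a zinc finger transcription factor and IER2 a nuclear protein of the same early response. DUSP1 and ZFP36 act as brakes, DUSP1 by removing phosphate from JNK and p38, and ZFP36 (tristetraprolin) by binding AU-rich elements in the 3′ untranslated region (3′UTR) of cytokine mRNAs and of its own mRNA and directing their decay.

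The nonamer TTATTTATT, the core of the AU-rich element that ZFP36 binds, was searched on the sense strand in the 3′UTRs of GENCODE M21 (GRCm38), where 7.14% of 20695 genes hold it. It occurs in Fos, Dusp1 and Zfp36 and in no other of the 10 genes. Among genes with a 3′UTR of similar length the share with the nonamer is 4.41% for Fos, 4.29% for Dusp1 and 4.16% for Zfp36. The 4 sites are all of those found in the 10 genes and are shown with 6 bases on each side and the nonamer in capitals. Their part in the levels of these mRNAs was not tested. They lie at chr12:85477107-85477127 on the plus strand for Fos, chr17:26506163-26506183 and chr17:26505874-26505894 on the minus strand for Dusp1, and chr7:28376955-28376975 on the minus strand for Zfp36.
Fos: ttcaatTTATTTATTaagatg
Dusp1, first site: tggtccTTATTTATTtaacac
Dusp1, second site: ttacctTTATTTATTtttgtg
Zfp36: acgactTTATTTATTgtatta

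Promoters of 8 of the 10 genes, all except Egr1 and Ier2, were matched in RefSeq (GRCm38.p6) as windows of 300 bases, from 250 before the start to 50 after it, and were searched on both strands. The core of the cyclic AMP response element, TGACG, which CREB and ATF factors bind, was in 5 of the 8 (Fos, Fosb, Junb, Atf3 and Dusp1) and in 20.8% of all 32817 windows. Its full palindrome, TGACGTCA, which contains the core on both strands, was in Dusp1 alone among the 8 and in 1.79% of all windows. The EGR site GCGNGGGCG was in Fosb and Zfp36 and in 5.56% of windows, and the CArG box of serum response factor was in Zfp36 and in 1.63%. TATAAA was in Fos and Junb and in 13.6%. In Fos it lay at bases -33 to -28, and in Junb at bases 1 to 6, where base 1 is the start. Sites more than 250 bases before the start, and the promoters of Egr1 and Ier2, were not searched. A motif not found here may therefore lie elsewhere. The AP-1 site TGANTCA was in none of the 8 windows and in 7.81% of all. The STAT site with a 4-base spacer was in none of the 8 windows and in 6.94% of all. With a 3-base spacer it was in Zfp36 alone and in 8.29% of all. The kappaB site was in Fos and Fosb and in 4.5%. Jun, which also rose with IL4, held none of the motifs searched. The part of any of these motifs in the changes with IL4 was not tested. The 150 bases before the start are shown for the 4 genes with a core that rose with IL4 and for Zfp36, which holds a CArG box. Capitals mark TGACG or TGACGTCA, with CGTCA where the core lies on the opposite strand, TATAAA in Fos, and GCGNGGGCG followed by the CArG box in Zfp36. The windows are chr12:85473740-85473889 on the plus strand for Fos, chr17:26508473-26508622 for Dusp1, chr1:191183334-191183483 for Atf3, chr8:84978749-84978898 for Junb and chr7:28379229-28379378 for Zfp36, the last 4 on the minus strand.
Fos: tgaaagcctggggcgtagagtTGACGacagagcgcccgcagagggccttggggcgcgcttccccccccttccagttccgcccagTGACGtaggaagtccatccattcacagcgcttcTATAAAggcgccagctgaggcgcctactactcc
Dusp1: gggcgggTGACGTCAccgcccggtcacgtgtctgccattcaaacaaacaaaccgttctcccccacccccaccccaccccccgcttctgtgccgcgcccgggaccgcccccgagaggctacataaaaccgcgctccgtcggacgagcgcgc
Atf3: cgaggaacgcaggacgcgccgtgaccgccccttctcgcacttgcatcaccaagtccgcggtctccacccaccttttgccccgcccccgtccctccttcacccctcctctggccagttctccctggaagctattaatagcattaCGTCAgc
Junb: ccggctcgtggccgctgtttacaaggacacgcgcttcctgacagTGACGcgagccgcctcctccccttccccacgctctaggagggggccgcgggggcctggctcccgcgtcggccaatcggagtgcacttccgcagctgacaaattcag
Zfp36: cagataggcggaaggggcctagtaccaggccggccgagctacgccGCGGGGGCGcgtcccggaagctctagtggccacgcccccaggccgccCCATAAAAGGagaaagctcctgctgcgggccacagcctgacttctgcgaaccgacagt

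The libraries held 7897769 to 22167294 reads assigned to genes in the differentiation table and 2408531 to 4214266 in the IL4 table. Levels are in CPM, with library sizes scaled by TMM factors. Changes are edgeR's log2 fold changes with their SE, and genes rose or fell only where the Benjamini-Hochberg adjusted p over all genes tested was under 0.05. The macrophage markers summed to 27519 to 52975 CPM in immature macrophages and 7291 to 9871 CPM in precursors, and 10 of 10 rose. The 14 neutrophil markers summed to 231 to 285 CPM in immature macrophages and 14747 to 21983 CPM in precursors, and 14 of 14 fell. In mature macrophages they summed to 2.69 to 5.66 CPM, with 9 of the 14 at 0 reads. All 7 B cell markers tested also fell in immature macrophages, at 2.13 to 2.94 CPM in sum against 294 to 422 CPM in precursors, as did all 6 progenitor markers. The precursor group therefore held RNA of several cell types, fewer cells of a type and less RNA per cell cannot be told apart in these bulk samples, and the part of other cell types in the changes between precursors and later stages was not tested.

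Between precursors and immature macrophages, 5 of the 9 genes tested fell (Fos, Egr1, Ier2, Dusp1 and Zfp36), 2 rose (Atf3 and Jund) and 2 were not called (Jun and Junb). Over all 13359 genes tested 26.6% fell and 22.5% rose. The median log2 fold change of the 9 was -1.27, beside -0.07 for all genes tested. Signs of RNA makeup moved with this comparison. Mitochondrial transcripts summed to 933 to 1614 CPM in immature macrophages and 3415 to 4486 CPM in precursors, with 10 of 13 lower. A list of 6 noncoding RNAs held Malat1, Neat1, Kcnq1ot1, Snhg1, Snhg12 and Gas5. These summed to 11965 to 15461 CPM in immature macrophages and 6247 to 12009 CPM in precursors, with 2 higher and 1 lower. The part of the mitochondrial and noncoding RNAs in the members' changes was not tested. The plot of levels by stage shows each library.

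**Figure D1:**
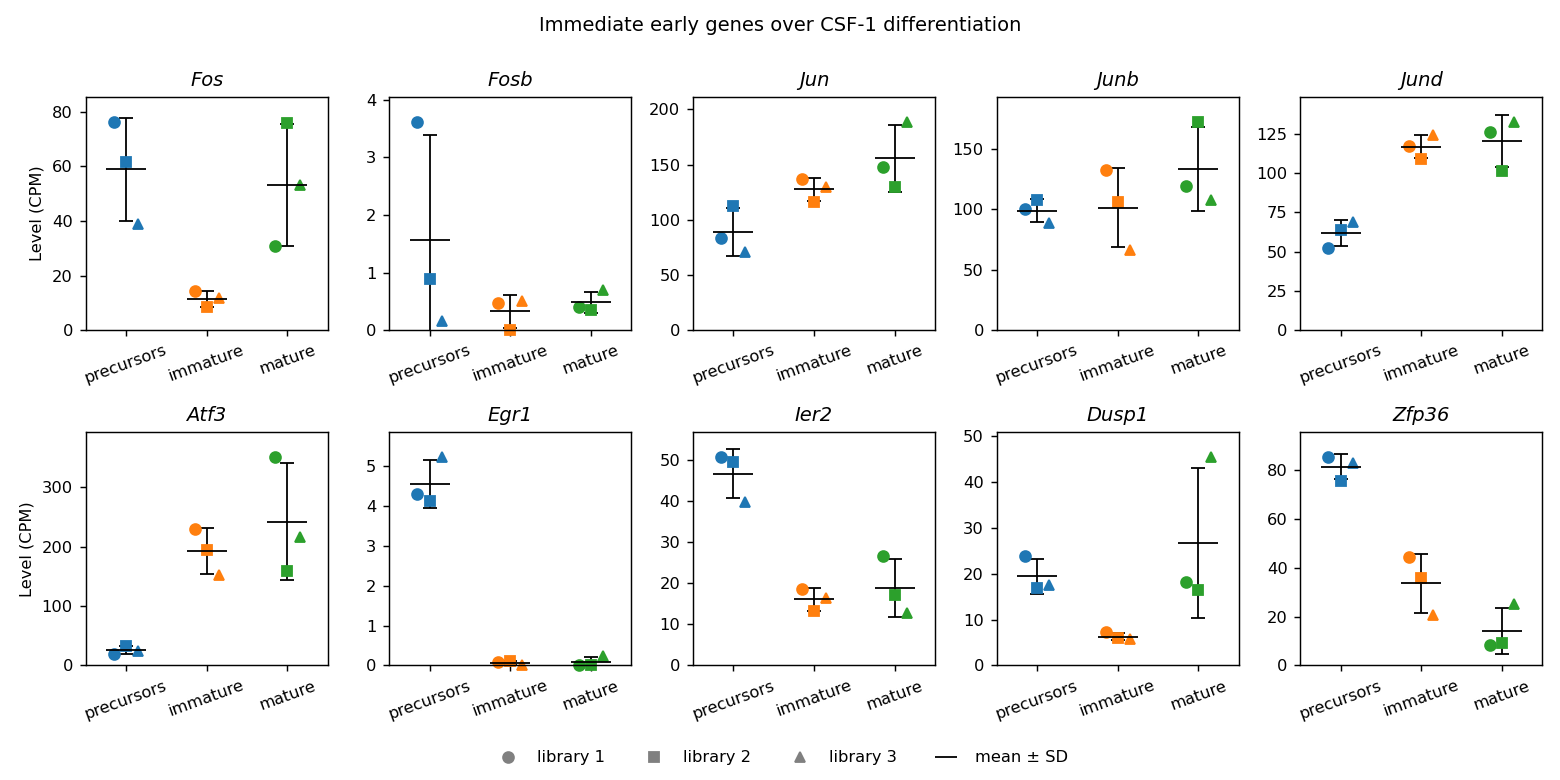
Level of each of the 10 genes in CPM (vertical axes, each from 0) in precursors, immature and mature macrophages, with 1 point per library and the mean ± SD of 3 libraries in black. Fos and Dusp1 are lowest in the immature stage, Atf3 and Jund are higher in both macrophage stages than in precursors, and Egr1, Ier2 and Zfp36 are highest in precursors.

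Fos (ENSMUSG00000021250, chromosome 12, 85473890 to 85477273, plus strand) encodes the founding partner of JUN in AP-1. Its level was 14.4, 8.49 and 11.6 CPM in immature macrophages, against 76.5, 61.7 and 38.9 CPM in precursors. The 3 immature libraries all lay below the lowest precursor library, and Fos fell by 2.35 ± 0.36 on the log2 scale (edgeR adjusted p = 0.00042). In mature macrophages it was 31.0, 75.8 and 53.1 CPM, above every immature library. The rise of mature over immature macrophages was 2.20 ± 0.36 (edgeR adjusted p = 0.00281), and mature macrophages overlapped with precursors, at -0.15 ± 0.34 (edgeR adjusted p = 0.725). Fosb (ENSMUSG00000003545, chromosome 7, 19302696 to 19310051, minus strand), its close relative, was nearly undetected, with 55, 22 and 2 reads in precursor libraries, 6, 0 and 4 in immature and 5, 3 and 9 in mature macrophages. The precursor library with 55 Fosb reads was also the one with the highest Fos level.

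The Jun members moved less. Jun (ENSMUSG00000052684, chromosome 4, 95049034 to 95052222, minus strand), the main partner of FOS, was at 137, 116 and 129.7 CPM in immature macrophages, against 83.4, 113 and 70.9 CPM in precursors. The groups did not overlap, but the highest precursor library came close to the lowest immature one, and the change of 0.52 ± 0.21 was not called (edgeR adjusted p = 0.0599). Without that precursor library, number 2, it was 0.73 and called (edgeR adjusted p = 0.0240), and a fit of only the 6 libraries compared called it too (edgeR adjusted p = 0.0414). In mature macrophages Jun was at 148, 129.9 and 189 CPM, which overlapped with the immature libraries. Relative to precursors it rose by 0.81 ± 0.21 there (edgeR adjusted p = 0.00775).

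Jund (ENSMUSG00000071076, chromosome 8, 70698949 to 70700616, plus strand) encodes the JUN relative that most cells keep at a steady level. It was at 117, 109 and 124 CPM in immature macrophages, against 52.5, 63.8 and 69.0 CPM in precursors. Every immature library lay well above every precursor library, at 0.92 ± 0.17 (edgeR adjusted p = 0.00134). Mature macrophages held it at 127, 102 and 133 CPM, overlapping with the immature libraries, and stood 0.96 ± 0.17 above precursors (edgeR adjusted p = 0.000805). Junb had 2 rows without an identifier on the minus strand of chromosome 8. The row at 84976910 to 84978718 was at 132, 106 and 66.6 CPM in immature macrophages, against 100.1, 108 and 88.5 CPM in precursors, and at 119, 172 and 108 CPM in mature macrophages. The immature libraries spread widely on both sides of the precursors. No stage comparison of Junb was called, and the row at 84974484 to 84976542, which shares 351 bases with Prdx2 on the other strand, had 0 to 4 reads per library. Antisense genes share 689 bases with Jun (Junos, 3 to 73 reads per library), 919 bases with Jund (Gm11175, 0 to 23 reads) and 1274 bases with Zfp36 (Gm44710, 0 to 8 reads). The strand setting of the counting is not given in the sources used here, so reads of a gene and of its antisense partner may not be told apart.

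Atf3 showed the largest rise of the 9 genes tested. It encodes a stress-induced leucine zipper factor that restrains inflammatory genes in macrophages (ENSMUSG00000026628, chromosome 1, 191170296 to 191218039, minus strand). Its level was 230.0, 195 and 153 CPM in immature macrophages, against 20.0, 33.1 and 23.5 CPM in precursors, a 7.53-fold difference with no overlap (log2 fold change 2.91 ± 0.32, edgeR adjusted p = 4.84e-05). Mature macrophages were at 350.4, 158 and 217 CPM. These overlapped with the immature libraries, and the difference between both stages of 0.33 ± 0.30 was not called (edgeR adjusted p = 0.498), while the rise over precursors was 3.24 ± 0.32 (edgeR adjusted p = 1.83e-05).

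Egr1 (ENSMUSG00000038418, chromosome 18, 34859823 to 34864984, plus strand) was low in precursors and nearly absent later. It had 1, 1 and 0 reads in immature macrophages, 0, 0 and 3 reads in mature macrophages, and 65, 102 and 65 reads, or 4.28, 4.12 and 5.22 CPM, in precursors. Pooled over libraries it was 67.0-fold lower in immature macrophages than in precursors, with a 95% counting interval of 18.4 to 557, and 50.1-fold lower in mature macrophages, with an interval of 16.9 to 245. Both falls were called (edgeR adjusted p = 0.000183 and 0.000139), and the intervals cover counting error only. Ier2 (ENSMUSG00000053560, chromosome 8, 84661331 to 84662852, minus strand) followed the same order at a higher level. It was at 18.8, 13.2 and 16.5 CPM in immature macrophages, against 50.8, 49.5 and 40.0 CPM in precursors, and at 26.8, 17.2 and 12.9 CPM in mature macrophages. Immature and mature libraries overlapped and all lay below the precursors. Ier2 fell by 1.53 ± 0.27 in immature macrophages (edgeR adjusted p = 0.000997) and by 1.30 ± 0.27 in mature macrophages (edgeR adjusted p = 0.00202) on the log2 scale, both relative to precursors.

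Dusp1 (ENSMUSG00000024190, chromosome 17, 26505590 to 26508519, minus strand), the nuclear phosphatase of JNK and p38, was lowest in the middle stage, as was Fos. It was at 7.25, 5.93 and 5.75 CPM in immature macrophages, against 23.8, 17.0 and 17.6 CPM in precursors, with no overlap (log2 fold change -1.62 ± 0.38, edgeR adjusted p = 0.00505). Mature macrophages held it at 18.2, 16.4 and 45.5 CPM. All 3 lay above the immature libraries, and library 3 stood apart above the precursors as well. Mature macrophages overlapped with precursors, and that difference was not called (0.46 ± 0.36, edgeR adjusted p = 0.295; -0.16 without library 3, edgeR adjusted p = 0.577). The rise over immature macrophages was 2.08 ± 0.38 (edgeR adjusted p = 0.00520), and without mature library 3, the one at 45.5 CPM, it was 1.45 and still called (edgeR adjusted p = 0.00409).

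Zfp36 (ENSMUSG00000044786, chromosome 7, 28376784 to 28380253, minus strand) was at 44.3, 35.6 and 20.7 CPM in immature macrophages, against 85.2, 75.5 and 82.8 CPM in precursors. The groups did not overlap, and the log2 fold change of -1.27 ± 0.40 was called lower near the threshold (edgeR adjusted p = 0.0214). It missed the threshold without precursor library 1 (edgeR adjusted p = 0.0578), precursor library 3 (0.0501), immature library 2 (0.0561) or immature library 3 (0.0815). In mature macrophages it was at 8.18, 9.36 and 24.95 CPM, all below the precursors, at -2.51 ± 0.41 (edgeR adjusted p = 0.000508). The third mature library lay inside the range of the immature libraries, and the difference of -1.24 ± 0.40 between mature and immature macrophages was not called (edgeR adjusted p = 0.0637). Without that library it was -1.94 and called (edgeR adjusted p = 0.00334), and without immature library 3 it was -1.53 and called (edgeR adjusted p = 0.0332).

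Between immature and mature macrophages, then, 2 of the 9 genes rose, Fos and Dusp1, where 7.52% of all genes tested rose. None fell by edgeR, where 7.38% of all genes fell, although Zfp36 had an unadjusted p under 0.05 and was called lower by DESeq2 and by limma. Mature macrophages set against precursors had 3 genes higher (Jun, Jund and Atf3) and 3 lower (Egr1, Ier2 and Zfp36), with 25.8% of all genes higher and 28.5% lower. The median log2 fold change of the 9 was 0.33 for mature over immature and 0.43 for mature over precursors, where all genes had medians of 0.00 and -0.05. Those 3 stage comparisons share their libraries, so their values are given side by side and not as separate evidence.

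**Figure D2:**
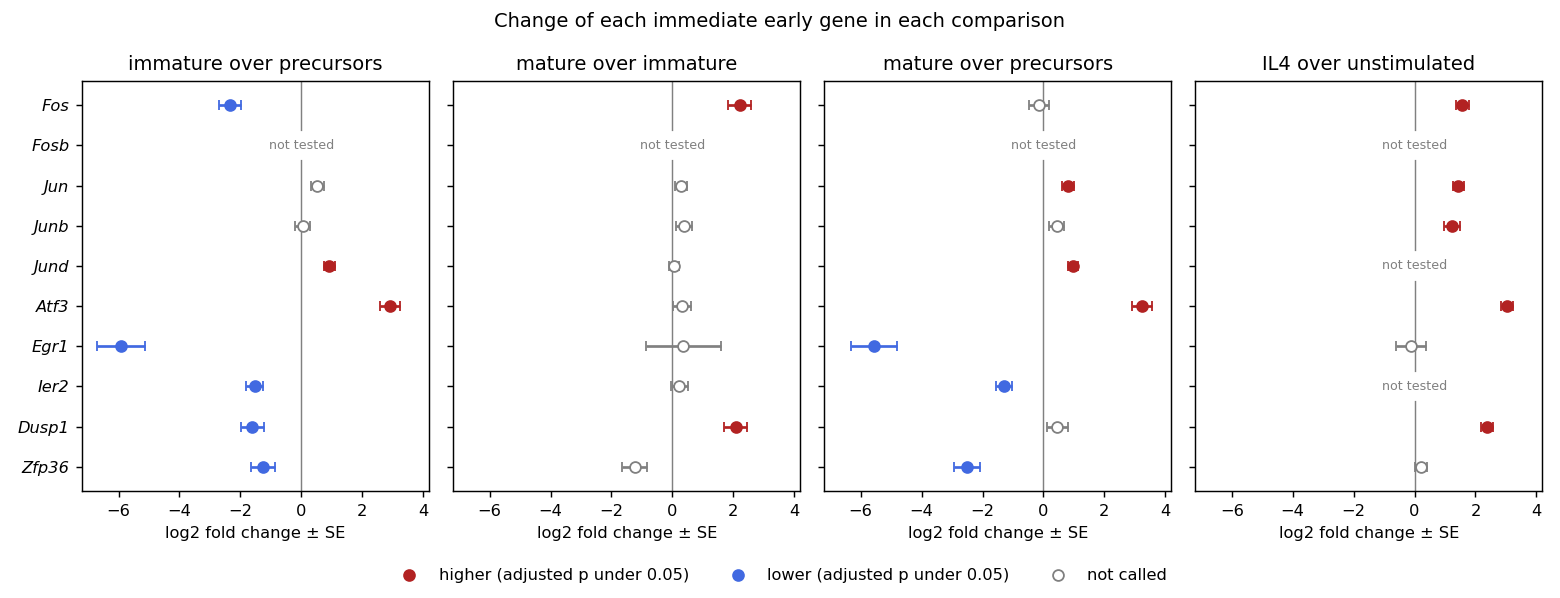
Fitted log2 fold change with its SE, from edgeR (horizontal axes), for each gene (rows) in the 4 comparisons (panels), red where called higher, blue where called lower and open where not called. Fos and Dusp1 lie left of 0 for immature over precursors and right of 0 for mature over immature, all 5 genes called with IL4 lie right of 0, and the fitted values of Egr1 in the stage comparisons rest on 2 and 3 reads in the macrophage groups.

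Mature library 3 held the highest mature level of Jun, Jund, Dusp1, Zfp36 and Egr1, and of Fosb at 9 reads. It also held 3832 CPM of mitochondrial transcripts in sum, against 887 and 616 CPM in the other mature libraries and 933 to 1614 CPM in immature macrophages, and 44321 CPM of macrophage markers, against 68519 and 68079 CPM. Mature library 2 held the highest Fos and Junb levels of its stage. Its listed noncoding RNAs (Malat1, Neat1 and others) summed to 15010 CPM. This sum was 4340 and 4809 CPM in the other mature libraries and 11965 to 15461 CPM in immature macrophages. Without mature library 2 the rise of Fos over immature macrophages was 1.86 (edgeR adjusted p = 0.00963). The part of the mitochondrial and noncoding RNAs in these levels was not tested.

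Per kilobase of exon, the order of the members also changed over the stages. Exons of all annotated transcripts were merged, so the length can exceed that of the main mRNA, and levels of different genes compare only roughly. For Zfp36 the length was its whole row, 3470 bases, so introns may be included and its level per kb may be understated. In precursors Junb led at 54.6 ± 5.33 CPM per kb, then came Jund at 37.0 ± 5.03, Ier2 at 30.7 ± 3.89, Jun at 27.9 ± 6.70, Fos at 25.1 ± 8.06 and Zfp36 at 23.4 ± 1.46, and Atf3 stood lower at 11.9 ± 3.16 (SD, n = 3). From Jund to Zfp36 the neighbours in this order overlapped within their spread. In mature macrophages Atf3 had the highest mean, at 112 ± 45.7 CPM per kb. Next came Junb at 73.6 ± 19.1, Jund at 72.1 ± 9.92 and Jun at 48.8 ± 9.49. Fos was at 22.7 ± 9.53, Ier2 at 12.5 ± 4.69, Dusp1 at 9.90 ± 6.04 and Zfp36 at 4.08 ± 2.70. Atf3, Junb and Jund did not differ beyond their spread there, nor did Junb and Jun. In mature library 2 Junb stood above Atf3, at 172 against 158 CPM before division by length. From Fos to Zfp36 the neighbours overlapped within their spread too.

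The genes whose log2 CPM followed a member most closely over the 9 differentiation libraries were ranked by Pearson's r for the 3 members with the highest mean level, among 9034 genes with at least 10 CPM on average. For Atf3 these included Ctsa (r = 0.993), a lysosomal enzyme, and Wsb2 (r = 0.991). Those of Jun included Cdkn1a (r = 0.966), an inhibitor of the cell cycle, and B4galt5 (r = 0.965). Junb had no gene as close, with Twistnb (r = 0.907), Usp16 (r = 0.901) and Nlrp1b (r = 0.880). The 9 points fall into 3 stages and share their libraries, so these values mostly describe the differences between stages.

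Other genes of the same early response, 23 tested, differed in direction among themselves. In immature macrophages relative to precursors 11 fell, 5 rose and 7 were not called, with a median of -0.50, where 26.6% of all genes fell and 22.5% rose. Plk3, a stress-responsive kinase, was at 2.52 ± 1.28 CPM in immature macrophages and 21.8 ± 0.742 CPM in precursors (SD, n = 3; log2 fold change -3.14 ± 0.34), and Csrnp1, a nuclear factor induced by growth signals, was at 5.45 ± 0.742 and 19.9 ± 1.33 CPM (-1.87 ± 0.22). Plk2, a relative of Plk3, went the other way, at 86.4 ± 11.8 CPM in immature macrophages and 6.52 ± 3.06 CPM in precursors (3.71 ± 0.49). In mature over immature macrophages 5 of the 23 rose and 2 fell. Plk3 rose back, at 20.0 ± 5.18 CPM in mature macrophages against 2.52 ± 1.28 CPM in immature ones (3.01 ± 0.34), and Rgs1, which shortens signalling by G proteins, was at 82.6 ± 35.6 against 10.9 ± 7.03 CPM (2.94 ± 0.46). Relative to precursors 7 were higher and 8 lower in mature macrophages, Klf4 among the lower ones at 5.52 ± 2.33 against 40.0 ± 10.8 CPM (-2.87 ± 0.33).

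Among 20 other AP-1 and partner factors tested, 6 rose and 4 fell in immature macrophages relative to precursors, with a median of 0.30. Over all genes tested, 22.5% rose and 26.6% fell in that comparison. The shares were 7.52% and 7.38% for mature over immature macrophages, and 25.8% and 28.5% for mature macrophages over precursors. All counts of this list and of the stage lists below stand beside these shares. Fosl2, a FOS relative, fell to 19.9 ± 4.98 CPM in immature macrophages, against 143 ± 24.1 CPM in precursors (-2.84 ± 0.22), whereas Atf5 was at 37.8 ± 7.18 against 4.73 ± 2.12 CPM (3.003 ± 0.45). Mature over immature macrophages had 2 higher and 3 lower, and mature macrophages over precursors 8 higher and 7 lower, Batf, which blocks FOS by pairing with JUN, being lower at 3.02 ± 0.698 CPM in mature macrophages against 13.1 ± 2.34 CPM in precursors (-2.09 ± 0.34).

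Of 20 upstream genes of serum response factor and the ERK pathway, 7 fell and 2 rose in immature macrophages relative to precursors, where 49.2% of all genes were called in either direction. Among them were Braf, a kinase above ERK, at 26.8 ± 6.46 against 82.8 ± 10.4 CPM (-1.62 ± 0.27), and Nras, the RAS protein that rose, at 197 ± 14.5 against 95.7 ± 3.54 CPM (1.04 ± 0.15). In mature over immature macrophages 2 rose and none fell by edgeR (1 at an unadjusted p under 0.05, none by DESeq2 or limma), and in mature macrophages over precursors 3 rose and 7 fell. Of 14 genes of the JNK and p38 pathway, 6 fell and 2 rose, 4 fell and 1 rose, and 7 fell and 2 rose in the comparisons of immature with precursors, mature with immature and mature with precursors. Map3k5, a stress kinase above JNK, was at 31.2 ± 3.04 CPM in immature macrophages and 127 ± 20.6 CPM in precursors (-2.02 ± 0.24). Nab1 and Nab2, which hold EGR factors back, both rose in immature macrophages, Nab2 to 37.9 ± 1.71 CPM against 21.4 ± 4.44 CPM in precursors (0.82 ± 0.21).

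Of 13 MAPK phosphatases and feedback inhibitors tested besides Dusp1, 6 fell and 3 rose in immature macrophages relative to precursors. Of these 13, Dusp5 and Dusp6 were called lower there and higher in mature over immature macrophages, as Dusp1 was. In mature over immature macrophages 6 rose and none fell by edgeR (1 at an unadjusted p under 0.05, 1 by DESeq2 and none by limma), with a median of 1.85 beside 0.00 for all genes. Dusp6, a phosphatase of ERK, was at 326 ± 27.4 CPM in mature macrophages against 32.0 ± 31.2 CPM in immature ones (3.36 ± 0.56). Dusp4, a nuclear relative of Dusp1, was at 125 ± 12.2 against 7.40 ± 5.77 CPM (4.11 ± 0.47), and Dusp5 at 5.76 ± 1.40 against 0.873 ± 0.424 CPM (2.67 ± 0.41). Relative to precursors 6 were higher and 3 lower in mature macrophages, Dusp3 at 288 ± 69.3 against 48.3 ± 4.63 CPM (2.58 ± 0.21) and Dusp2 at 0.258 ± 0.317 against 13.8 ± 0.830 CPM (-5.55 ± 0.57).

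Relatives of ZFP36 and factors of mRNA decay were mainly lower in the later stages. Of 14 tested, 9 fell in immature macrophages relative to precursors, 4 fell in mature over immature macrophages and 12 fell in mature macrophages relative to precursors. None rose in these comparisons by edgeR, also at an unadjusted p under 0.05, by DESeq2 or by limma. Btg1, which recruits deadenylases, was at 35.8 ± 3.53 CPM in mature macrophages and 268 ± 25.4 CPM in precursors (-2.90 ± 0.27), and Cnot1, the scaffold of the deadenylase complex, at 104 ± 14.2 and 331 ± 22.2 CPM (-1.67 ± 0.17). The 12 tested mRNAs that ZFP36 is known to bind in macrophages did not move as a block, with 3 higher and 5 lower in immature macrophages relative to precursors, 3 higher and 1 lower in mature over immature macrophages, and 5 higher and 3 lower in mature macrophages relative to precursors. Tnf, the best studied of them, was at 7.33 ± 2.01 CPM in immature macrophages, against 37.95 ± 2.07 CPM in precursors (-2.37 ± 0.26), and at 73.2 ± 20.1 CPM in mature macrophages (3.32 ± 0.27 over immature). Ccl4, a chemokine, was at 92.7 ± 39.9 CPM in mature macrophages and 5.15 ± 1.31 CPM in precursors (4.18 ± 0.33).

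**Figure D3:**
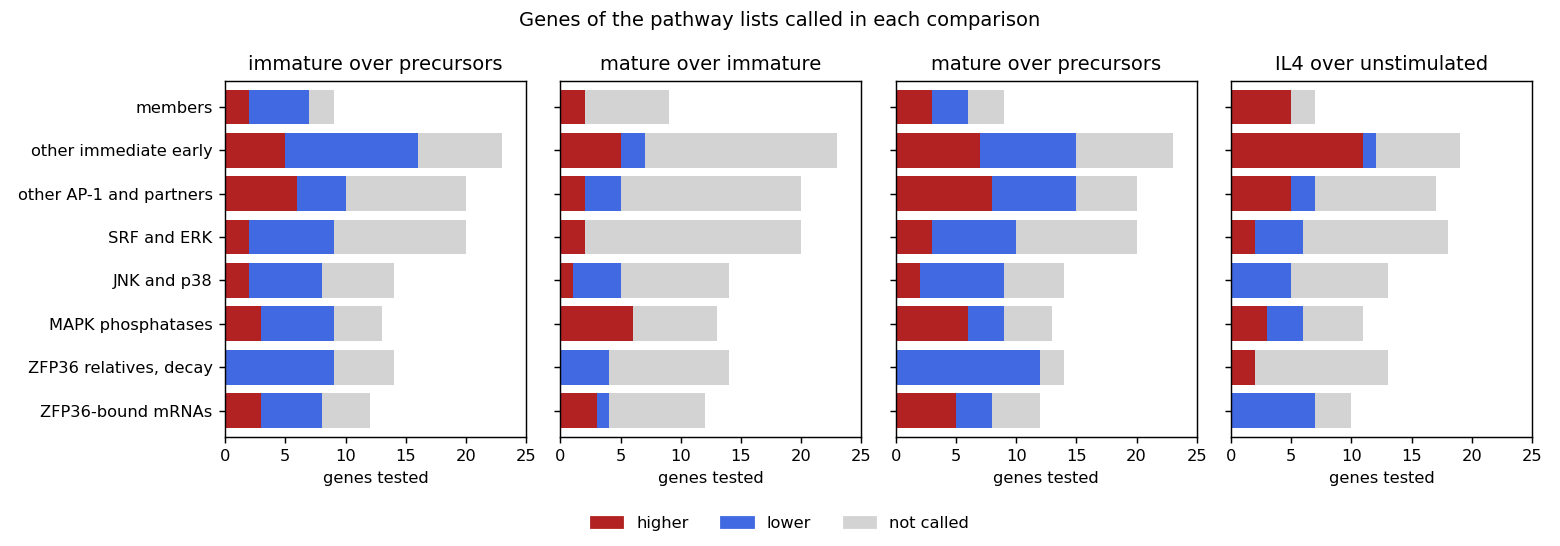
Number of tested genes (horizontal axis) called higher (red), lower (blue) or not called (grey) by edgeR in the 10 genes described and in 7 lists of their pathway (rows), for the 4 comparisons (panels). The other immediate early genes have 11 lower and 5 higher in immature macrophages relative to precursors, and 11 higher and 1 lower with IL4.

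With IL4, 5 of the 7 genes tested rose in mature macrophages: Fos, Jun, Junb, Atf3 and Dusp1. Over all 8936 genes tested 10.5% rose and 10.3% fell. None of the 7 fell by edgeR, also at an unadjusted p under 0.05, by DESeq2 or by limma, and Egr1 and Zfp36 were not called. The median log2 fold change of the 7 was 1.43, beside 0.01 for all genes tested. With the mouse number as a replicate block 2883 genes were called in place of 1855, and the same 5 members were called higher. The comparison measures the state after 48 h of IL4 and not the first minutes, when immediate early genes respond.

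**Figure D4:**
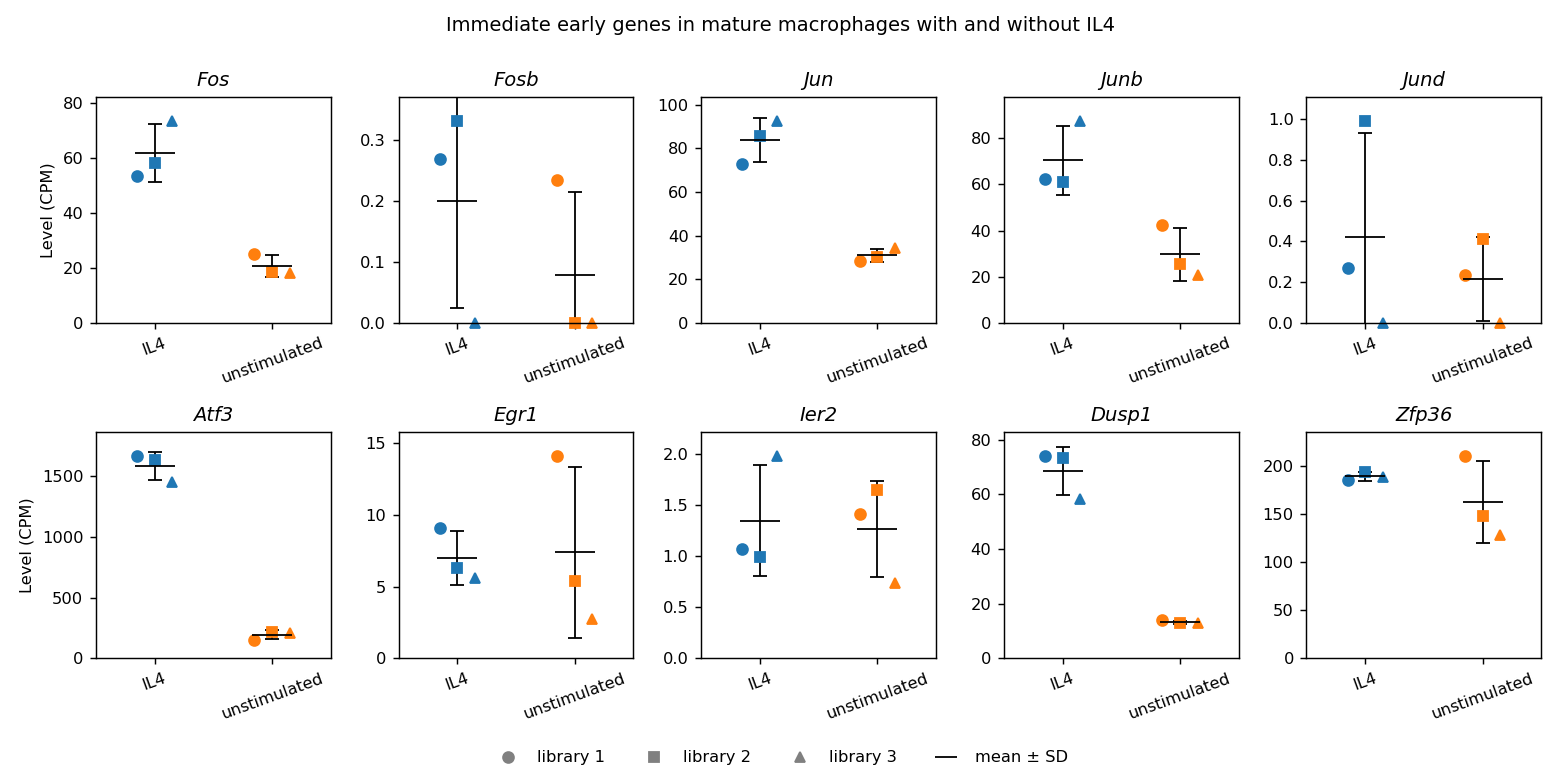
Level of each of the 10 genes in CPM (vertical axes, each from 0) in mature macrophages with IL4 and unstimulated, with 1 point per library and the mean ± SD of 3 libraries in black. Fos, Jun, Junb, Atf3 and Dusp1 show no overlap between the groups, Egr1 and Zfp36 overlap, and Fosb, Jund and Ier2 stand at under 2 CPM in every library.

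Atf3 changed most. It was at 1666, 1636 and 1453 CPM with IL4, against 155, 220.1 and 212 CPM in unstimulated macrophages. The lowest IL4 library stood several times above the highest unstimulated one, an 8.11-fold difference (log2 fold change 3.02 ± 0.20, edgeR adjusted p = 3.67e-06), and at 799 ± 58.1 CPM per kb of exon Atf3 was far above every other member, the next being Zfp36 at 76.5 ± 1.87. Dusp1 was at 73.9, 73.1 and 58.3 CPM with IL4, against 13.8, 12.8 and 12.8 CPM in unstimulated macrophages. The unstimulated libraries were nearly equal and the IL4 libraries all higher, by 2.37 ± 0.20 (edgeR adjusted p = 1.72e-05). The plot of levels with IL4 shows the same wide gap for both genes.

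Fos was at 53.6, 58.2 and 73.4 CPM with IL4 and at 25.1, 18.5 and 18.2 CPM in unstimulated macrophages, again without overlap (1.57 ± 0.21, edgeR adjusted p = 0.000404). Its partner Jun was at 72.6, 85.7 and 92.5 CPM with IL4, against 28.4, 30.1 and 34.3 CPM unstimulated (1.43 ± 0.18, edgeR adjusted p = 0.000266). Junb (ENSMUSG00000052837 in this table, chromosome 8, 84976909 to 84978748) was at 62.4, 61.2 and 87.6 CPM with IL4, against 42.5, 25.5 and 21.0 CPM unstimulated. The gap between its groups was the narrowest of the 5, between 61.2 and 42.5 CPM (1.24 ± 0.27, edgeR adjusted p = 0.00772). Thus both components of the FOS and JUN pair and the JUNB relative rose together, with Fosb at 0 or 1 read in each library and Jund at 0 to 3 reads.

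Egr1 and Zfp36 overlapped between the groups. Egr1 was at 9.10, 6.29 and 5.60 CPM with IL4, against 14.1, 5.36 and 2.71 CPM in unstimulated macrophages (-0.10 ± 0.49, edgeR adjusted p = 0.926). Its unstimulated libraries spanned the whole range of the IL4 libraries, and without unstimulated library 1 the value was 0.88, not called (edgeR adjusted p = 0.166). Zfp36 was at 185, 194 and 188 CPM with IL4, against 209.8, 148 and 128 CPM (0.22 ± 0.20, edgeR adjusted p = 0.520). The IL4 libraries were close together inside the wider range of the unstimulated ones, whose library 1 was also the highest in Junb, Fos and Egr1. Ier2 had 3 to 6 reads per library in either group. With so few reads in this table, Fosb, Jund and Ier2 were not tested.

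The order of all members by level was not the same in the tables. Rows of the tables differ in extent for some genes and were normalized separately, so the levels are set side by side without a test. Atf3, Jun, Junb, Fos and Dusp1 kept the same order of mean levels among themselves. Their means were 242, 156, 133, 53.3 and 26.7 CPM in mature macrophages, and 196, 30.9, 29.7, 20.6 and 13.1 CPM in unstimulated ones. Libraries of Jun and Junb overlapped in both. The other members with reads changed place. Egr1 had 0 to 3 reads in mature macrophages of the differentiation table and 11 to 60 reads in the shallower unstimulated libraries. Zfp36 was at 8.18 to 24.95 CPM in the first and 128 to 209.8 CPM in the second, where its row is shorter (28376784 to 28379255). Jund was at 102 to 133 CPM in the first and at 0 to 0.412 CPM in the second, where its row is longer (70697739 to 70700616). Ier2 was at 12.9 to 26.8 CPM in the first and at 0.740 to 1.65 CPM in the second. CPM allows for depth, and how the counting of the tables differed is not given in the sources used here. Mitochondrial transcripts, which the first table counts in every library, were at 0 to 0.235 CPM in sum in the second.

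Other immediate early genes also rose with IL4, 11 of 19 tested, with 1 lower and a median of 0.89. Over all genes tested 10.5% rose and 10.3% fell, and the IL4 lists below stand beside the same shares. Egr2, a relative of Egr1, was at 229 ± 43.8 CPM with IL4 and 9.33 ± 5.56 CPM in unstimulated macrophages (SD, n = 3; log2 fold change 4.57 ± 0.35, edgeR adjusted p = 1.08e-05). Klf4, a zinc finger factor known to act with STAT6 in macrophages given IL4, was at 87.1 ± 0.325 and 11.9 ± 4.40 CPM (2.84 ± 0.25), and Sgk1, a kinase of the glucocorticoid and growth factor response, at 544 ± 126 and 90.2 ± 15.8 CPM (2.59 ± 0.23). Of 17 other AP-1 and partner factors, 5 rose and 2 fell. Fosl2 was at 468 ± 178 CPM with IL4 and 90.9 ± 12.1 CPM unstimulated (2.37 ± 0.26), and Batf3 at 14.1 ± 2.18 and 0.756 ± 0.0617 CPM (4.17 ± 0.33), while Maf, a leucine zipper factor of resident macrophages, was at 12.4 ± 5.19 and 123 ± 8.43 CPM (-3.31 ± 0.26).

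Of 13 upstream genes of the JNK and p38 pathway 5 fell with IL4 and none rose by edgeR (1 at an unadjusted p under 0.05, none by DESeq2 or limma). Mapkapk2, the p38 target kinase that phosphorylates ZFP36, was at 269 ± 28.3 CPM with IL4 and 558 ± 126 CPM unstimulated (-1.05 ± 0.19). Of 18 genes of serum response factor and the ERK pathway 2 rose, 4 fell and 12 were not called. Mkl2, a coactivator of serum response factor, was at 105 ± 12.4 CPM with IL4 and 44.3 ± 5.70 CPM unstimulated (1.24 ± 0.18), and Rps6ka3, a kinase below ERK, at 173 ± 24.9 and 99.2 ± 3.28 CPM (0.80 ± 0.17). Elk3, a partner of serum response factor, was at 29.0 ± 3.79 and 87.9 ± 15.3 CPM (-1.60 ± 0.20). The MAPK phosphatases split, with 3 of 11 higher and 3 lower. Dusp4 was at 112 ± 23.8 CPM with IL4 and 36.5 ± 7.41 CPM unstimulated (1.61 ± 0.22), and Dusp6 at 44.2 ± 6.29 and 258 ± 97.4 CPM (-2.55 ± 0.28). Nab1 fell, at 88.9 ± 14.6 and 188 ± 6.96 CPM (-1.08 ± 0.17), and Nab2 was not called.

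Of 10 mRNAs known to be bound by ZFP36, 7 fell with IL4 and none rose by edgeR (1 at an unadjusted p under 0.05, none by DESeq2 or limma), with a median of -2.17, while Zfp36 itself was not called. Nfkbiz was at 12.4 ± 2.22 CPM with IL4 and 57.5 ± 10.6 CPM unstimulated (-2.21 ± 0.23), and the chemokine Ccl4 at 9.99 ± 3.90 and 46.5 ± 15.8 CPM (-2.21 ± 0.32). Of 13 relatives of ZFP36 and decay factors 2 rose, Btg1 and Btg2, and none fell by edgeR (1 at an unadjusted p under 0.05, 1 by DESeq2 and 1 by limma). Heat shock and stress genes moved with the members, 6 of 11 tested being higher and 2 lower. Their summed level was 6960 to 9565 CPM with IL4, against 5003 to 5765 CPM unstimulated, and Hsph1, a heat shock protein, was at 426 ± 52.1 and 96.2 ± 17.6 CPM (2.15 ± 0.20). Their part in the rise of the members was not tested. Macrophage markers summed to 25064 to 27881 CPM with IL4 and 43960 to 59368 CPM unstimulated, Lyz2 holding most of it. Of the 9 macrophage markers tested 2 were higher, 4 lower and 3 not called. All 8 B cell and all 7 T and NK cell markers were at 0 reads in both groups. The 7 stromal and endothelial markers summed to 52.6 to 115 CPM with IL4 and 2.96 to 4.46 CPM unstimulated, with 1 of them tested and higher (Vwf) and 3 at 0 reads with IL4. Their part in the changes was not tested either.

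The authors' deposited table of adjusted p-values listed a member 20 times over the 4 comparisons, and these were the same 20 of 34 pairs of member and comparison that edgeR called here. Both rest on the same libraries, and the submitters' notes also name edgeR, so this match is not separate evidence. In all 20 the libraries of the groups did not overlap, as also in 2 pairs that were not called, Jun in immature macrophages over precursors and Junb in mature macrophages over precursors. Groups without overlap were thus found for 8 of 9 members in immature macrophages over precursors, where 65% of all genes tested had none, for 2 of 9 in mature over immature macrophages (32.2% of all genes), for 7 of 9 in mature macrophages over precursors (64.1%) and for 5 of 7 with IL4 (35.9%).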

How the data were processed

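Read counts per gene were deposited by the authors as whole numbers, in 1 table for 9 differentiation libraries and another for 6 libraries with or without IL4. The authors also deposited log2 RPM for the same genes, matched in distribution between libraries as their sorted values show, and lists of adjusted p-values (FDR). HISAT2 2.0.5, edgeR (no version), GRCm38.p6 and GRCm39.p6 are named per the submitters' processing notes. How reads were counted, and whether by strand, is not given in the sources used here. Reads per library limit precision for genes with few reads.

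Counts were tested with edgeR 4.0.16 under R 4.3.3: filterByExpr with a minimum count of 10, TMM, glmQLFit and glmQLFTest without covariates or robust estimation, 1 fit per table, and Benjamini-Hochberg adjustment over all genes tested, called under 0.05. The scripts were tested on simulated data. The members and lists were chosen with earlier results of these data known. All members are named, and from each pathway list up to 3 called genes per comparison, taken by smallest p among those reaching 5 CPM in the higher group. From each list of other cells or RNA quality the gene with the highest mean was eligible. Alternatives were RLE scaling, DESeq2 1.42.0, no filter, limma 3.58.1 on the log2 RPM, the mouse number as replicate block, only the 6 libraries compared, and each library left out. The titles number mice 1 to 3 in every group, but the IL4 table's columns carry 6 different numbers, so whether libraries with the same title number share an animal is not known. Deviations from group means correlated by 0.591, 0.175 and 0.413 within numbers in the IL4 table and by -0.129 to 0.165 in the differentiation table. Between unlike numbers they correlated by -0.487 to 0.247 in the IL4 table and by -0.128 to 0.139 in the differentiation table. P-values measure the spread between these samples, which may be technical. Sequences came from RefSeq (GRCm38.p6) and GENCODE M21. Coordinates are those of the deposited tables. Some genes ranked by likeness to a member are not reported here.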

Additional observations from a re-analysis of the deposited data

How the results depend on the processing

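Of 34 log2 fold changes of members, none that was called turned its direction under any alternative, and all but 3 kept their side of the threshold. The exceptions were Jun in immature macrophages over precursors and Zfp36 in immature over precursors and mature over immature macrophages, all near the threshold. The count of members lower in mature over immature macrophages was 0 by the main test, and 1 (Zfp36) without the filter on low counts, by DESeq2 and by limma on log2 RPM. Leaving out each library gave 0 to 1. Over all genes in that comparison 1991 were called, 1245 with only the 6 libraries compared, and 1007 to 2702 with a library left out. With the replicate block the IL4 comparison called 2883 genes in place of 1855 and changed no call of a member there or in the stages. In the fits by limma on log2 RPM the median of all genes in immature macrophages over precursors was 0.10 in place of -0.07, a shift smaller than each member's called change. Fosb in both tables, and Jund and Ier2 with IL4, had too few reads for a test. Jund and Ier2 were well covered in the differentiation table, and why they had few reads in the IL4 table was not tested.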
